A study of Mus musculus with 8 samples.

Results

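The genes described here encode the core particle and the regulatory particle of the proteasome, and they number 31 of the 55450 genes listed for replicates 1 to 3. They are the protein-coding genes whose mouse symbol is Psma, Psmb, Psmc or Psmd followed by a number. The catalytic subunits Psmb5 to Psmb10 and pseudogene models were left out, and a mean of at least 1 FPKM over vehicle replicates 1 to 3 was asked for. FPKM is a level corrected for the length of the gene's transcripts and for sequencing depth. The symbol rule found 33 genes, of which 2 had less than 1 FPKM. Psmd9, at 4.24 FPKM, was the member nearest to that threshold, and Psma8 (0.485 FPKM) and Psmb11 (0.0172 FPKM) lay under it.

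The RNA came from cultures that the labels call bone marrow-derived dendritic cells, grown from the marrow of SS dry eye mice. One group received recombinant S100A8/A9, the alarmin of neutrophils and monocytes also called calprotectin, and the other received PBS, called vehicle here. Each group held 4 libraries, numbered 1 to 4, and all 8 libraries share the disease model, so no culture from other mice stands beside them. The labels give no strain, age, dose or time of treatment, do not say that the libraries came from separate animals or cultures, and carry an abbreviation usually used for macrophages in the sample titles. P-values therefore measure only the spread between these libraries, which may be technical.

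The proteasome is the protease that degrades ubiquitin-tagged proteins in the cytosol and nucleus. Its core particle is a barrel of alpha rings, which gate the entrance, around beta rings, which hold the cutting sites. Its regulatory particle has a base, whose ATPases unfold the substrate, and a lid, which removes the ubiquitin chain. In dendritic cells the peptides it releases feed major histocompatibility complex class I presentation, and interferons exchange its catalytic beta subunits for immunoproteasome forms. The transcription factor NRF1, encoded by Nfe2l1, is known to raise the proteasome genes together when proteasome activity falls short.

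The members are 7 alpha ring subunits, 4 non-catalytic beta subunits, 6 base ATPases, 3 other base subunits, 8 lid subunits and 3 chaperones that help to assemble the base. They lie on 15 chromosomes. RefSeq promoter windows of build GRCm38.p6, each 250 bases before to 50 bases after a start site, were held for 26 of the 31. The interferon-stimulated response element, searched on both strands as GAAA repeated after any 2 bases, was found in the windows of 3 of these 26 members (11.5%), against 3.97% of the tested genes with a window and 3.44% of all windows. Those members are Psmb3, Psmd4 and Psmd9. The antioxidant response element that NRF1 can bind, searched as TGACNNNGC on both strands, was found in Psmc6, Psmd12 and Psmd9, also 3 of 26 (11.5%), against 17.2% of tested genes and 12.4% of all windows. A CCAAT box was found in 11 members (42.3%, against 42.5% of tested genes and 37.4% of all windows). Its longer form CCAATCAG, which contains CCAAT, was found in 1 member (3.85%, against 6.24% and 4.1%), and the GC box GGGCGG in 17 (65.4%, against 69.5% and 35.7%). A match says only that these letters are in the window.

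The 3 upstream stretches with the interferon-stimulated response element are shown because interferon-stimulated genes are the list that rose in these cultures, as given further on. The stretch of Psmd8, the member with the highest level, is shown beside them as one with neither of the first 2 motifs. Capitals mark this element or TGACNNNGC on either strand, each line reads 5′ to 3′ on the gene's strand, and bases that GENCODE annotates as exon are left out. The stretch of Psmd9 precedes a RefSeq start that lies inside the longer gene span of GENCODE. The stretches are chr11:97703184-97703398 on the plus strand for Psmb3, chr3:95042615-95042864 on the minus strand for Psmd4, chr5:123227940-123228189 on the plus strand for Psmd9 and chr7:29180702-29180923 on the minus strand for Psmd8.
Psmb3: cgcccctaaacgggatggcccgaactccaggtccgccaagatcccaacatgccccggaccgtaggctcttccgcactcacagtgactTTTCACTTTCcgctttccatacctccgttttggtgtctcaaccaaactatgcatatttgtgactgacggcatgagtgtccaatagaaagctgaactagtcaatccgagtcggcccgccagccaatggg
Psmd4: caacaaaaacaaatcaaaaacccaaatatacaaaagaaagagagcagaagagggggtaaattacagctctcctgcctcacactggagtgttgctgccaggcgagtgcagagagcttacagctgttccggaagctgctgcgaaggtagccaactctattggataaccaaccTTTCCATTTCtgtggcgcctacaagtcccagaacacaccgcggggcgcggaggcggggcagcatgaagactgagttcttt
Psmd9: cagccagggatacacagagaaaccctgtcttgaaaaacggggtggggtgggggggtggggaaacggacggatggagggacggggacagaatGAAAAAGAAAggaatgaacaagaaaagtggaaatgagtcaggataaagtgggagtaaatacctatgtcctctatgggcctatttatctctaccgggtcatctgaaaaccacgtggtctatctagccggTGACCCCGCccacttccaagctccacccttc
Psmd8: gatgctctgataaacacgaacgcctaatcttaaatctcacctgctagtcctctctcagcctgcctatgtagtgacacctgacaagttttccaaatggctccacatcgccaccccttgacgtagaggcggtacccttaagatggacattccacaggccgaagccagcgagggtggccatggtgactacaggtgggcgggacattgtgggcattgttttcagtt

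In replicates 1 to 3 from 11180 to 11487 genes per library reached 1 FPKM, and the libraries' log2(FPKM + 1) values correlated at 0.985 to 0.993. Of the 8 markers fixed for dendritic cells, 6 reached 1 FPKM in 3 or more libraries. Itgax had 47.2 to 66.9 FPKM, Ccr7 141 to 227 FPKM and Zbtb46 2.13 to 3.62 FPKM. Cd74 had 2530 to 3823 FPKM, H2-Aa 442 to 714 FPKM and H2-Ab1 327 to 671 FPKM. Flt3 and Dpp4 did not exceed 0.92 and 0.98 FPKM. Macrophage markers had a mean log2(FPKM + 1) of 5.98, 5.0 and 4.38 in S100A8/A9 replicates 1, 2 and 3, against 5.86, 4.91 and 4.29 in the vehicle libraries. Neutrophil markers had means of 0.74, 1.25 and 1.53 with S100A8/A9, against 0.73, 1.26 and 1.62 with vehicle. Of the 10 listed neutrophil markers only 2, S100a8 and S100a9, reached 1 FPKM in 3 or more libraries. They had 9.72 to 125 and 1.36 to 21.6 FPKM, and no other neutrophil marker, Ly6g and Mpo included, exceeded 1.02 FPKM. The level of the macrophage markers and of S100a8 and S100a9 differed among replicate numbers and little within them. Erythroid markers also differed among replicate numbers. Hbb-bs had 0.78, 2.55 and 34.8 FPKM in S100A8/A9 replicates 1, 2 and 3, against 0.84, 2.96 and 41.5 FPKM with vehicle. The part of these markers in the results below was not tested. In bulk RNA fewer cells of a type and less RNA per cell cannot be told apart.

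Most proteasome genes lay in 1 range of levels in replicates 1 to 3. Over vehicle replicates 1 to 3, 26 of the 31 members lay between 10 and 50 FPKM, a range that held 3451 of 11387 tested genes. The members' median was 24.6 FPKM, and the highest member stood 18.8-fold above the lowest. In vehicle replicate 4 the members ran from 2.81 FPKM (Psmd9) to 83.9 FPKM (Psma6). In replicates 1 to 3 Psmd8, a lid subunit, was the highest at 89.4 ± 10.2 FPKM with S100A8/A9 and 79.7 ± 7.71 FPKM with vehicle (SD, n = 3 each). With vehicle, Psmb2, a non-catalytic beta subunit, and Psmd2, a base scaffold that docks ubiquitin shuttle proteins, followed. With S100A8/A9 the alpha ring subunit Psma7, at a mean of 40.3 FPKM, stood above Psmd2, at 38.6 FPKM. The 3 lowest members were the base assembly chaperones Psmd9, Psmd5 and Psmd10, with vehicle means of 4.24, 4.88 and 5.17 FPKM. These chaperones are not part of the finished particle. By class, the median levels were 29.4 FPKM with S100A8/A9 and 26.2 FPKM with vehicle for the alpha ring. Beta subunits had a median of 34.4 FPKM with S100A8/A9 and 31.8 FPKM with vehicle, and base ATPases 21.9 FPKM with S100A8/A9 and 21.4 FPKM with vehicle. The other base subunits had 27.2 FPKM with S100A8/A9 and 25.0 FPKM with vehicle, and the lid 20.1 FPKM with S100A8/A9 and 19.4 FPKM with vehicle.

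**Figure D1:**
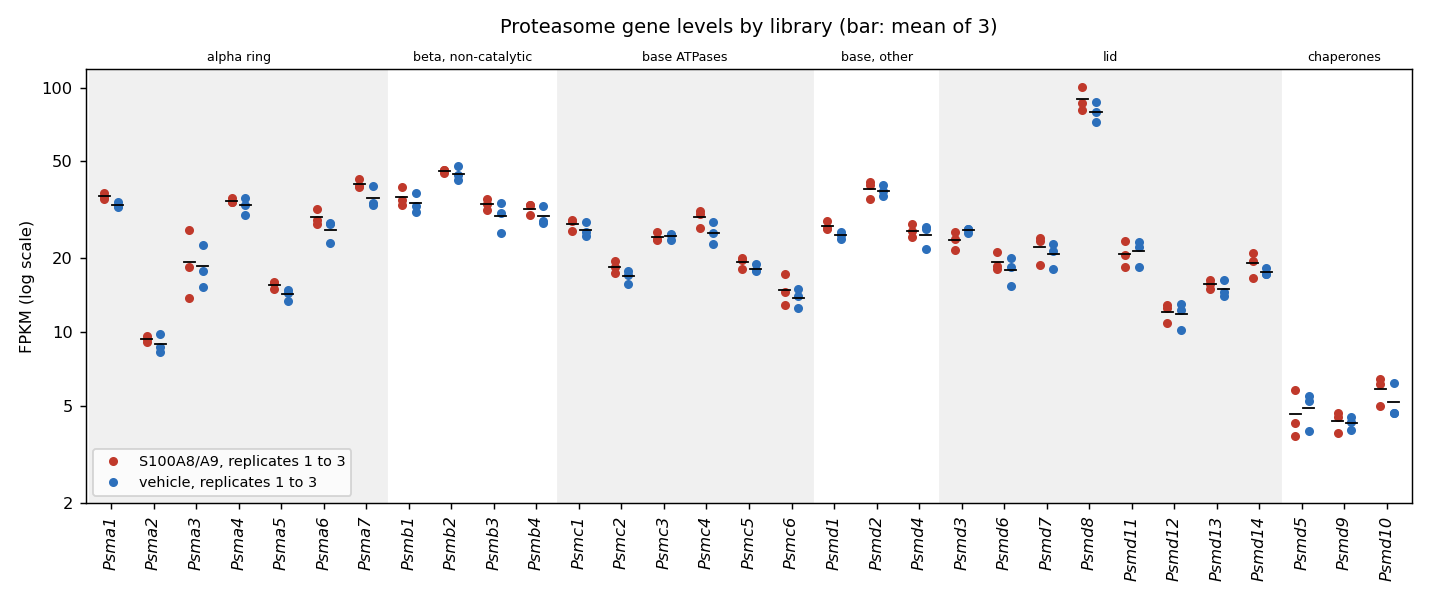
FPKM (log axis) of each of the 31 proteasome genes in S100A8/A9 (left point column of each gene) and vehicle replicates 1 to 3, with a bar at the mean of 3. The groups do not overlap for 3 genes (Psma1, Psma5 and Psmd1), Psmd8 stands highest and the 3 chaperones lowest.

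No proteasome gene passed the test between S100A8/A9 and vehicle. In limma-trend on log2(FPKM + 1) of replicates 1 to 3, 0 of 31 members had a Benjamini-Hochberg adjusted p under 0.05, the threshold for a call, and 0 had an unadjusted p under 0.05. The test ran over 11387 genes that reached 1 FPKM in 3 or more of 6 libraries, and all 31 members were among them. The same fit called 0 genes in all (0%), with 344 at an unadjusted p under 0.05 (3.02%). With the replicate number as a block, 59 genes were called (0.518%), 57 higher (0.501%) and 2 lower (0.0176%), and again 0 of 31 members. With the block, 2 members (6.45%) had an unadjusted p under 0.05, Psma7 and Psma6, against 7.97% of tested genes. The smallest adjusted p among members was then 0.489, for Psma7.

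The intervals bound the size of any difference. In the fit without the block, the 95% interval of the log2 difference included 0 for all 31 members and lay within -0.5 to 0.5 for 30, with Psma3 as the exception. With the block the interval included 0 for 29 members and lay above it for Psma7 (0.03 to 0.33) and Psma6 (0.0034 to 0.32). Standard errors on the log2 scale ran from 0.09 to 0.24 without the block and from 0.06 to 0.22 with it. Those given below for single genes, and their intervals, are from the fit without the block unless stated. The members also tended to vary little among libraries of a group. Their median residual SD was 0.109 on the log2(FPKM + 1) scale, against 0.151 for the 3451 tested genes at 10 to 50 FPKM and 0.17 for all tested genes. Psma1 had the lowest, 0.035, and Psma3 the highest, 0.368.

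Small positive differences prevailed in replicates 1 to 3. The log2 difference was above 0 for 27 of 31 members (87.1%), against 59.6% of all tested genes and 66.6% of those at 10 to 50 FPKM. Its median was 0.08 over members and 0.02 over all tested genes. Within pairs of the same replicate number, 11 members (35.5%) were higher with S100A8/A9 in all 3 pairs, against 19.4% of all tested genes and 23.1% at 10 to 50 FPKM. One member was lower in all 3 pairs, Psmd3, against 9.62% of tested genes. The groups did not overlap for 3 members, Psma1, Psma5 and Psmd1, all higher with S100A8/A9 (9.68%, against 4.71% of tested genes), and for 0 members in the lower direction (1.94% of tested genes). After quantile normalization 5 members were higher in all 3 pairs, against 12.9% of tested genes, and the median was 0.03 over members and -0.01 over all tested genes. Without vehicle replicate 1 the median of the members was 0.04. Members above 0 numbered 22 with quantile normalization. With single libraries left out they numbered from 22 (without vehicle replicate 1) to 30 (without S100A8/A9 replicate 1). The members were read in the same libraries, so these counts are not made of independent observations.

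**Figure D2:**
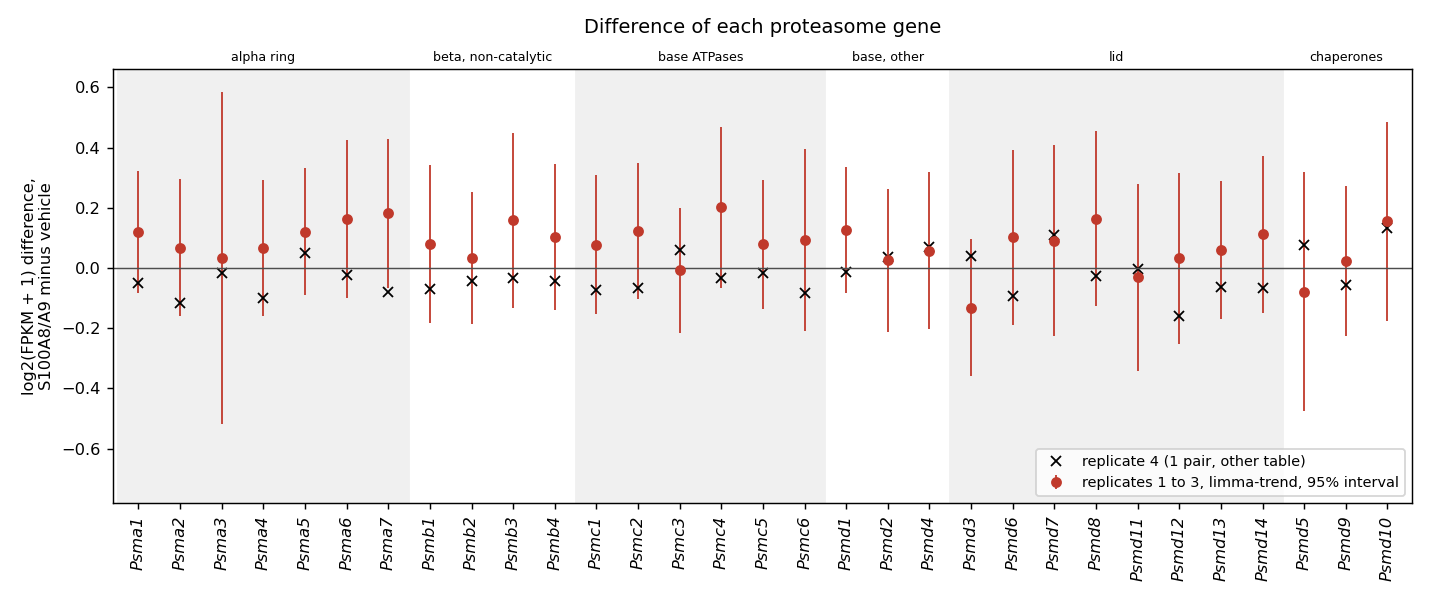
Difference in log2(FPKM + 1), S100A8/A9 minus vehicle, of each proteasome gene: points and 95% intervals from limma-trend on replicates 1 to 3 without the replicate block, crosses from the single pair of replicate 4. All 31 of these intervals include 0, and 23 of the 31 crosses lie below 0.

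All 7 alpha ring genes had positive differences in replicates 1 to 3, against 59.6% of all tested genes, with a median of 0.12. Of the 7, 4 were higher in all 3 pairs, against 19.4% of tested genes. With quantile normalization the difference of Psma3 was -0.02. No alpha ring gene passed the test. Psma7 (chr2:180036374-180042433, minus strand) had 39.1, 39.4 and 42.3 FPKM with S100A8/A9, against 33.6, 33.1 and 39.7 FPKM with vehicle. All 3 S100A8/A9 libraries lay above vehicle replicates 1 and 2, and 1 of them lay above vehicle replicate 3. Its log2 difference was 0.18 (SE 0.11, 95% interval -0.07 to 0.43), the largest of the ring. With the block the SE was 0.06 and the interval 0.03 to 0.33. In replicate 4 Psma7 had 37.4 FPKM with S100A8/A9 and 39.6 FPKM with vehicle. Psma1 had 35.0, 35.8 and 37.0 FPKM with S100A8/A9, against 33.9, 32.4 and 32.8 FPKM with vehicle. These groups did not overlap, but their gap was small, with a log2 difference of 0.12 (SE 0.09). Psma5 had 15.9, 14.9 and 15.8 FPKM with S100A8/A9, against 14.5, 14.8 and 13.4 FPKM with vehicle, a log2 difference of 0.12 (SE 0.09), with the lowest S100A8/A9 library only just above the highest vehicle library. The summed alpha ring FPKM of S100A8/A9 over vehicle was 1.11, 1.16 and 1.01 in pairs 1, 2 and 3, and 0.971 in pair 4.

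Psma3 (chr12:70974621-70996347, plus strand), also an alpha ring gene, had the widest spread of the members. It had 18.4, 26.1 and 13.7 FPKM with S100A8/A9, against 15.2, 17.7 and 22.8 FPKM with vehicle. The groups overlapped fully and the pairs disagreed in sign, with log2 differences of 0.26, 0.53 and -0.69. Its fitted difference was 0.03 (SE 0.24, 95% interval -0.52 to 0.59). The processed pseudogene Gm13835 (chr6:31141979-31142663, minus strand) matches a Psma3 transcript at 100% over 665 bases, so reads could be divided between them in a way the files do not show. Gm13835 had 12.7, 14.2 and 12.6 FPKM with S100A8/A9, against 12.3, 9.15 and 12.0 FPKM with vehicle. The sums of both were 31.1, 40.3 and 26.3 FPKM with S100A8/A9, against 27.5, 26.8 and 34.8 FPKM with vehicle, and the pairs disagreed in the sum too. Psma3 has 3894 exon bases and Gm13835 has 685, so a sum of FPKM does not undo a division of reads. The sum therefore cannot show how far the copy matters. Values of Psma3 remain uncertain, and the part of the copy in their spread was not tested.

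The 4 non-catalytic beta subunits, which complete the beta ring beside the cutting subunits, had differences from 0.03 to 0.16. None was called, and none was higher in all 3 pairs. Psmb3 (chr11:97703399-97713500, plus strand) had 33.5, 31.5 and 35.0 FPKM with S100A8/A9, against 30.7, 33.7 and 25.3 FPKM with vehicle. Vehicle replicate 2 lay within the S100A8/A9 range and the other vehicle libraries below it, and the log2 difference was 0.16 (SE 0.12). It was 0.05 without vehicle replicate 3 and 0.25 without vehicle replicate 2. Psmb2 (chr4:126677630-126709714, plus strand) had 45.9, 45.8 and 44.6 FPKM with S100A8/A9, against 47.8, 43.8 and 41.8 FPKM with vehicle. Its difference was 0.03 (SE 0.09, 95% interval -0.19 to 0.25). Summed beta subunit FPKM stood at 0.999, 1.02 and 1.18 times vehicle in pairs 1, 2 and 3, and at 0.968 in pair 4.

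Among the 6 base ATPases, 5 had positive differences and 4 were higher in all 3 pairs, again with 0 called. Of all tested genes, 59.6% had positive differences and 19.4% were higher in all 3 pairs. Psmc4 (chr7:28041707-28050101, minus strand) had 26.6, 30.5 and 31.2 FPKM with S100A8/A9, against 25.4, 28.1 and 22.9 FPKM with vehicle. Its log2 difference of 0.20 (SE 0.11, 95% interval -0.07 to 0.47) was the largest of all 31 members. With the block the SE was 0.09 and the interval -0.007 to 0.41. Most of the difference came from pair 3, at 0.43, against 0.06 and 0.11 in pairs 1 and 2 and -0.03 in pair 4. Psmc3 (chr2:91054009-91066369, plus strand) was level, at 23.8, 25.6 and 24.0 FPKM with S100A8/A9 and 25.3, 24.9 and 23.7 FPKM with vehicle. Its 95% interval ran from -0.21 to 0.20. Psmc3 overlaps Slc39a13 on the opposite strand, and as no strand marking is stated its reads cannot be told apart from those of that gene, which had 12.8 FPKM with vehicle.

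The other base subunits are the scaffolds Psmd1 and Psmd2 and the ubiquitin receptor Psmd4. Psmd1 (chr1:86064387-86139151, plus strand) had 26.3, 28.5 and 26.8 FPKM with S100A8/A9, against 24.8, 25.8 and 23.9 FPKM with vehicle. The groups did not overlap, with a log2 difference of 0.12 (SE 0.09), while in replicate 4 it was at 12.9 FPKM with S100A8/A9 and 13.1 FPKM with vehicle. Psmd2 (chr16:20651652-20663414, plus strand) had 35.1, 39.9 and 40.9 FPKM with S100A8/A9, against 36.1, 37.7 and 39.9 FPKM with vehicle. Its groups overlapped almost fully, and the difference was 0.03 (SE 0.10). Psmd4, whose upstream stretch is shown above, averaged 26.0 ± 1.51 FPKM with S100A8/A9 and 25.0 ± 2.71 FPKM with vehicle (SD, n = 3 each).

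The 8 lid genes held both the highest member and the most negative difference. Psmd8 (chr7:29174188-29180701, minus strand), a structural lid subunit, had 81.1, 86.3 and 101 FPKM with S100A8/A9, against 72.1, 87.5 and 79.4 FPKM with vehicle. The groups overlapped, and the difference was 0.16 (SE 0.12, 95% interval -0.13 to 0.45). Psmd3 (chr11:98682554-98695979, plus strand), another structural lid subunit, had 21.7, 24.0 and 25.6 FPKM with S100A8/A9, against 25.5, 26.4 and 26.4 FPKM with vehicle. It was lower in each of the 3 pairs, by -0.22, -0.13 and -0.04 on the log2 scale, but 1 S100A8/A9 library lay above the lowest vehicle library. The fitted difference was -0.13 (SE 0.10, 95% interval -0.36 to 0.10). In replicate 4 it had 12.3 FPKM with S100A8/A9 and 11.9 FPKM with vehicle. Psmd14, the deubiquitinase of the lid, averaged 19.1 ± 2.31 FPKM with S100A8/A9 and 17.5 ± 0.57 FPKM with vehicle (SD, n = 3 each). Psmd7, the partner of Psmd14, averaged 22.2 ± 2.89 FPKM with S100A8/A9 and 20.8 ± 2.48 FPKM with vehicle. Over the lid as a whole, the median log2 difference was 0.08, with 6 genes above 0, 2 below it and 0 called, against 59.6% of tested genes above 0.

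The base assembly chaperones had 2 differences above 0 and 1 below. Psmd10 (chrX:140948429-140956728, minus strand), known as gankyrin, had 6.41, 4.99 and 6.14 FPKM with S100A8/A9, against 6.21, 4.64 and 4.65 FPKM with vehicle. It was higher in all 4 pairs, at 0.04, 0.09, 0.34 and 0.13 on the log2(FPKM + 1) scale, with a fitted difference of 0.15 (SE 0.14). Psmd5 (chr2:34849734-34874968, minus strand) had 3.75, 4.24 and 5.81 FPKM with S100A8/A9, against 3.95, 5.21 and 5.48 FPKM with vehicle, a difference of -0.08 (SE 0.17). Psmd9 (chr5:123169413-123250131, plus strand) had 3.87, 4.66 and 4.47 FPKM with S100A8/A9, against 3.97, 4.47 and 4.28 FPKM with vehicle. Both motifs stand before the RefSeq start of Psmd9, inside the annotated span of the gene, and its difference was 0.02 (SE 0.11).

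Adding up all 31 members gave 756, 805 and 822 FPKM with S100A8/A9, against 718, 762 and 753 FPKM with vehicle. The sum was higher with S100A8/A9 in each of the 3 pairs, at 1.05, 1.06 and 1.09 times vehicle. In replicate 4 it was 959 FPKM with S100A8/A9 and 978 FPKM with vehicle, a ratio of 0.981. The members' share of each library's FPKM was 0.249%, 0.284% and 0.274% with S100A8/A9, against 0.240%, 0.270% and 0.258% with vehicle, and 0.290% against 0.284% in replicate 4. On that share, all 4 pairs were higher with S100A8/A9. In pair 4 this came from the smaller FPKM total of the S100A8/A9 library, 331300 against 344200 with vehicle, which raises the share of every gene alike. In FPKM the median log2 difference of pair 4 was -0.03 for the members and 0.02 for the tested genes in that table. The share therefore does not show a rise of the members in replicate 4.

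In replicate 4, whose table was made and normalized separately, most members lay slightly below vehicle. Of the 31 members, 23 (74.2%) had a difference below 0, against 45.0% of the 11180 tested genes in that table. The median member difference was -0.03, with a range from -0.16 (Psmd12) to 0.13 (Psmd10). The deposited values implied between 646 and 8163 reads per member and library. With each 2 reads taken as 1 fragment, the 95% counting interval of the S100A8/A9 over vehicle ratio (exact binomial) included 1 for 29 members. It lay below 1 for Psma2 (ratio 0.92, 0.855 to 0.991) and Psmd12 (0.89, 0.811 to 0.977), and above 1 for 0 members. Of the low values that were whole reads, 58.1% (S100A8/A9) and 57.8% (vehicle) were even, so the 2 reads per fragment are an assumption. With each read counted singly the intervals would be narrower, and the counts of members could differ. All these intervals cover counting error only, and with 1 library a group there is no replicate check. The median of the members was 0.06, 0.06 and 0.07 in pairs 1, 2 and 3, against -0.01, 0.01 and 0.08 for all tested genes.

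**Figure D3:**
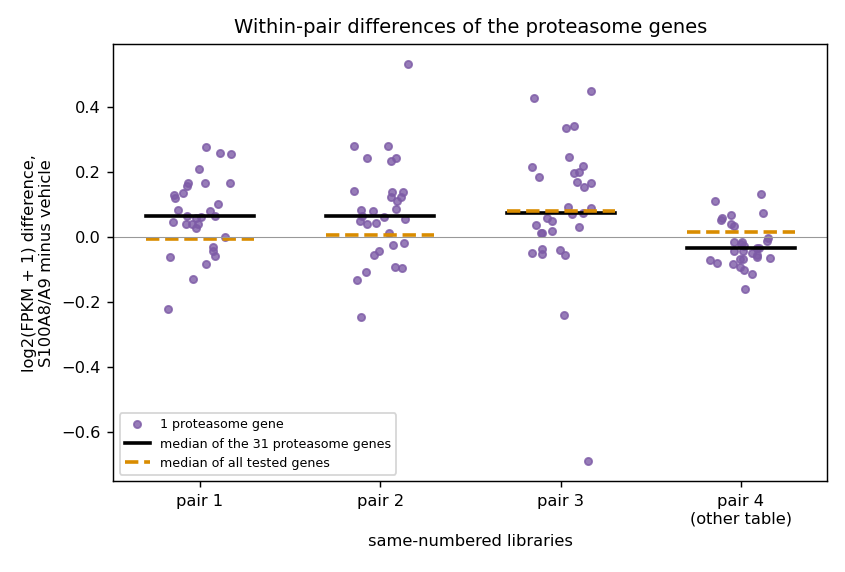
Within-pair differences in log2(FPKM + 1), S100A8/A9 minus vehicle, of the 31 proteasome genes (points) in pairs 1 to 4, with the median of the members (solid line) and of all tested genes (dashed line). The members' median is above 0 in pairs 1 to 3 and at -0.03 in pair 4, and the lowest point is Psma3 in pair 3.

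The levels of single members differed far more between the separately normalized tables than between treatments. The FPKM of vehicle replicate 4 over the mean of vehicle replicates 1 to 3 ran from 0.457 for Psmd3 to 3.40 for Psmd10. Members with short transcripts tended to have the higher ratios, as with Psma6 (1234 exon bases, ratio 3.20) and Psma5 (1321 bases, ratio 2.88). Members with long ones tended to have the lower ratios, as with Psmd1 (7265 bases, ratio 0.526) and Psmd11 (6383 bases, ratio 0.487). Exceptions included Psmb2 (1204 bases, ratio 1.18), Psma2 (3673 bases, ratio 2.79) and Psmd5 (7230 bases, ratio 1.06). Over the 31 members, Spearman's rho between this ratio and annotated exon length was -0.66, a description over genes that share the same libraries. The rank of a member's level is therefore bound to the table: the levels of vehicle replicates 1 to 3 and of vehicle replicate 4 had a rho of 0.70. Psmd8, highest in the first table, had 52.3 FPKM in vehicle replicate 4, below the 83.9 FPKM of Psma6.

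**Figure D4:**
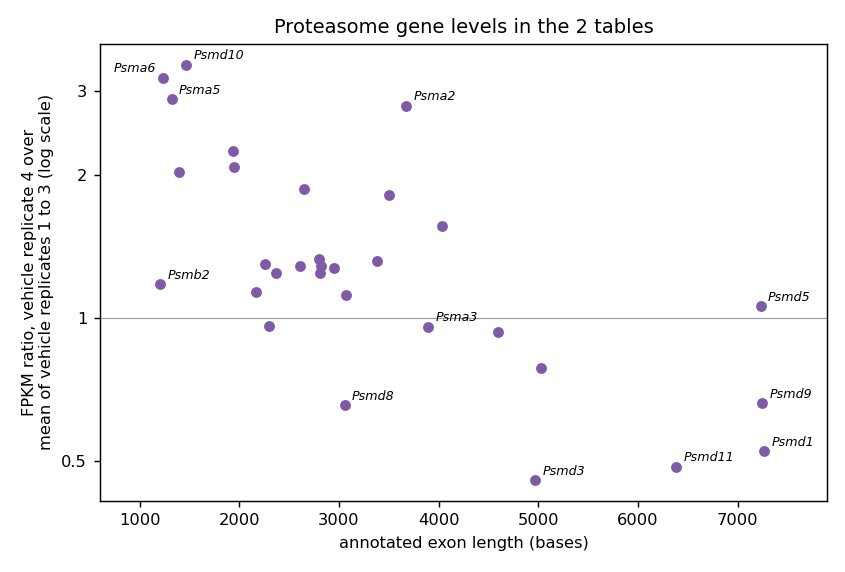
FPKM of vehicle replicate 4 divided by the mean of vehicle replicates 1 to 3 (log axis) against annotated exon length in bases, 1 point per proteasome gene. Ratios run from 0.457 to 3.40 and tend to be lower for longer transcripts (Spearman's rho -0.66, n = 31).

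Proteasome genes did not pass the test for a difference among replicate numbers either, although many other genes did. In the fit with group and replicate number, the number term was called for 0 of 31 members, against 1450 of 11387 tested genes (12.7%) and 661 of 3451 at 10 to 50 FPKM (19.2%). At an unadjusted p under 0.05 the counts were 3 of 31 members (9.68%), 31.4% of all tested genes and 41.8% of those at 10 to 50 FPKM. The term was called for 9 of 9 tested macrophage markers, 5 of 6 dendritic cell markers and 9 of 12 interferon-stimulated genes. Calls numbered 4 of 4 for tested erythroid markers, 2 of 2 for neutrophil markers and 1 of 5 for T and NK cell markers. Few calls were not particular to the members. The term was called for 0 of 3 constitutive and 0 of 3 immunoproteasome subunits, 0 of 5 assembly factors and 0 of 11 ubiquitin and shuttle genes. Calls numbered 1 of 5 for activators and inhibitor, 1 of 7 for associated receptors, deubiquitinases and ligases, and 1 of 8 each for transcriptional control and class I genes. The 3 members with an unadjusted p under 0.05 were Psmd7, Psmd11, a lid subunit that touches the core particle, and Psmd5. Psmd7 had 18.9, 23.5 and 24.2 FPKM with S100A8/A9 in replicates 1, 2 and 3, against 18, 22.9 and 21.4 FPKM with vehicle. Psmd11 had 18.4, 20.7 and 23.6 FPKM with S100A8/A9, against 18.4, 22.4 and 23.4 FPKM with vehicle. In both genes, replicate 1 was the lowest of its group, and the adjusted p of the term was 0.068 for Psmd7 and 0.075 for Psmd11 (limma). With all libraries scaled to a common sum, both passed (adjusted p 0.030 for Psmd7 and 0.039 for Psmd11), against 15.9% of tested genes in that setting. Without pair 2 Psmd5 passed (adjusted p 0.048), against 16.1% of tested genes.

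**Figure D5:**
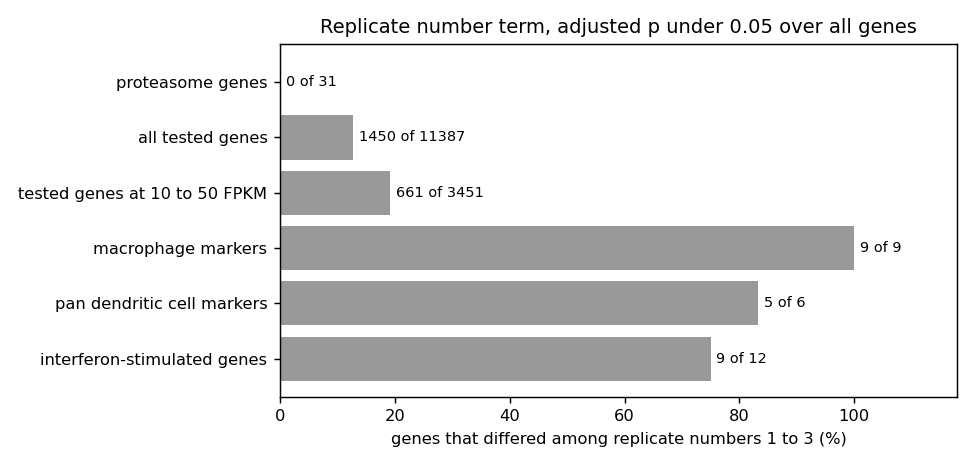
Share of genes, in percent, for which the replicate number term of the limma-trend fit had an adjusted p under 0.05, for the proteasome genes, all tested genes, tested genes at 10 to 50 FPKM and 3 marker lists. The proteasome genes are at 0 of 31, against 12.7% of all tested genes. The proteasome-related lists, with 0 or 1 call each, are not drawn.

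The catalytic subunits that were left out of the members also had no call. Of the constitutive ones, Psmb6 averaged 59.9 ± 4.78 FPKM with S100A8/A9 and 55.6 ± 7.73 FPKM with vehicle (SD, n = 3 each), and the list's median difference was 0.09. The 3 immunoproteasome subunits, which interferons induce, had a median of 0.24. Psmb9 had 23.9, 18.1 and 23.3 FPKM with S100A8/A9, against 19.0, 16.6 and 18 FPKM with vehicle. Only the S100A8/A9 library of replicate 2 lay within the vehicle range, and the difference was 0.26 (SE 0.13, adjusted p with the block 0.370). Psmb10 had 35.2, 34.5 and 34.9 FPKM with S100A8/A9, against 29.9, 32.2 and 26.2 FPKM with vehicle. The groups did not overlap, at 0.24 (SE 0.10, adjusted p with the block 0.410). Psmb8 averaged 51.5 ± 5.78 FPKM with S100A8/A9 and 47.9 ± 6.19 FPKM with vehicle. In pair 4 their differences ran from -0.02 to 0.02. Whether these subunits differed more than the members was not tested.

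Genes that regulate, assemble or feed the proteasome had 0 calls in either fit. Of the alternative activators and the inhibitor, all 5 had differences above 0, against 59.6% of tested genes, with a median of 0.08. The activator subunits Psme1 and Psme2 were at 0.05 (SE 0.12) and 0.13 (SE 0.12), and the inhibitor Psmf1 at 0.18 (SE 0.19). Psmf1 ran from 0.02 without S100A8/A9 replicate 3 to 0.32 without vehicle replicate 3. The 5 tested assembly factors had a median of 0.03, with Psmg2, a chaperone of the alpha ring, at 0.24 (SE 0.11), and Pomp, the maturation protein of the core, at 0.01 (SE 0.09). The 8 genes that control proteasome transcription also had a median of 0.03. Among them Nfe2l1 averaged 34.1 ± 3.13 FPKM with S100A8/A9 and 32.0 ± 4.14 FPKM with vehicle (SD, n = 3 each), and Nfyc, a subunit of the CCAAT-binding factor, was at -0.16 (SE 0.14), or -0.03 without S100A8/A9 replicate 1. The 7 proteasome-associated receptors, deubiquitinases and ligases had a median near 0, with the ligase Ube3a at -0.20 (SE 0.13). Of the 11 ubiquitin and shuttle genes, with a median of 0.03, Rps27a, a ubiquitin and ribosomal protein fusion, had -0.38 (SE 0.24). Its pairs disagreed in sign, at -0.88, 0.42 and -0.68.

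Of the 8 listed genes of class I presentation and its control, 0 were called in either fit. Their median difference was 0.20, and 7 were higher with S100A8/A9 in all 3 pairs, against 19.4% of tested genes. The exception was the peptidase gene Tpp2, with a difference near 0. Nlrc5, the transactivator of class I genes, had 19.6, 20.6 and 17.8 FPKM with S100A8/A9, against 11, 15.2 and 13.1 FPKM with vehicle. The groups did not overlap, at 0.54 (SE 0.13), and the blocked fit gave an adjusted p of 0.097 (limma). In pair 4 the difference of Nlrc5 was 0.24 and the median of the list 0.02. The interferon-stimulated genes were the one list with calls. That list was chosen with earlier results of these data known, so its counts are not independent support. All 12 had an unadjusted p under 0.05. With the block 10 of 12 rose past the adjusted threshold, against 0.518% of tested genes called. Their median difference was 1.41 in replicates 1 to 3 and 0.23 in pair 4. In pair 4, 9 of 12 were above 0, and Isg15 was the lowest at -0.28. With the block, 3 of 12 were called with upper-quartile, median-of-ratios or quantile scaling, 4 without pair 3, and 0 without the filter or with all 8 libraries. All 12 had differences above 0 in each of these settings. Ifit2, an interferon-induced RNA-binding protein gene, had 38.2, 23.7 and 8.38 FPKM with S100A8/A9, against 6.97, 6.66 and 2.88 FPKM with vehicle. Beside that, the members with the interferon-stimulated response element upstream had differences of 0.16 (Psmb3), 0.06 (Psmd4) and 0.02 (Psmd9), none of them called.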

How the data were processed

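Libraries were made from poly(A) RNA by random-primed cDNA synthesis and read on an Illumina platform, per the labels' protocols, which state no strand marking. Build mm10 and the tools DESeq2 1.34.0, HISAT2, Subread and featureCounts are named in the submitters' processing notes, without their roles. The authors deposited FPKM per Ensembl gene. No header or label states this unit, which was inferred from the values. Replicates 1 to 3 and replicate 4 were normalized by the authors in separate tables, so tests used replicates 1 to 3 only. In replicate 4, 98.55% (vehicle) and 98.8% (S100A8/A9) of values worth up to 20 reads were whole reads within 0.01 reads, which implied 31900000 (vehicle) and 33400000 (S100A8/A9) reads. Only 3.0% to 4.56% were whole in replicates 1 to 3, and their depth is unknown.

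The 31 members and all gene lists were chosen with earlier results of these data known. The test was limma-trend (limma 3.58.1, R 4.3.3), two-sided, on log2(FPKM + 1) with a group term, and genes entered if 3 or more libraries reached 1 FPKM. This scale understates changes of low genes. The labels do not say what a replicate number marks. Deviations from group means correlated at 0.595, 0.254 and 0.52 between libraries of the same number and at -0.531 to -0.01 between others, so the numbers pair the libraries. The fit blocked on replicate number is printed where it changes a call or a count, and for some single genes. Other standard errors and intervals are from the group-only fit and include the spread between replicate numbers. The scripts were tested on simulated data.

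Values in each library of replicates 1 to 3 are given for the largest and smallest difference of each class and the 3 highest and 3 lowest members. For fixed or leading genes of related lists, library values, means or differences are given. Psma1, Psma5, Psma6, Psmd7, Psmd11, Psmb3, Psmd4 and Psmd9 are also named for counts or motifs seen afterwards, as are Psma2, Psmd12 and Psmd14. Positions and exon lengths are from GENCODE M21, copies were searched with BLAST+ 2.17.0, and promoters are from RefSeq. Exact binomial intervals (scipy 1.17.1) are at 95% and cover counting error only. Alternatives were another pseudocount (0.1), no filter, 4 scalings, the block, all 8 libraries and leaving out libraries. The block combined with other settings was added after the data were seen.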

Additional observations from a re-analysis of the deposited data

Results flagged for a closer look

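The within-pair difference of Psmd11, a lid subunit gene, was set apart in pair 2. Its log2 difference between S100A8/A9 and vehicle was -0.11 there, against 0.00, 0.01 and -0.003 in pairs 1, 3 and 4. The gap of the lowest of these 4 values to the nearest other one was larger than Dixon's 95% limit for 4 values. The 4 pairs of each of the 31 members were examined in this way, and chance sets apart about 1 in 20 such groups. Pair 4 comes from the separately normalized table.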

How the results depend on the processing

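In every setting run, 0 of 31 proteasome genes were called for the difference between S100A8/A9 and vehicle. Settings without the block called at most 1 gene of all, so 0 members there shows no stability. The count over all genes depended on the processing. It was 0 in the group-only fit and 59 with the replicate block, and 1 at most when single libraries were left out, without vehicle replicate 2. With the block it was 42, 95 and 5 without pairs 1, 2 and 3, 62 with a pseudocount of 0.1, 39 after scaling to a common sum, 3 each with upper-quartile, median-of-ratios and quantile scaling, and 0 without the filter or with all 8 libraries. The last settings with the block and another choice were added after the data were seen.

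The median log2 difference of the members, 0.08, was 0.0602 with a common sum, 0.0583 with upper-quartile factors, 0.0563 with median-of-ratios factors, 0.0319 with quantile normalization and 0.0535 with all 8 libraries, with or without the block. It ran from 0.0432 to 0.0985 when single libraries were left out and from 0.0745 to 0.0896 when whole pairs were left out of the blocked fit. Members higher in all 3 pairs numbered 5 with quantile normalization, against 12.9% of tested genes. Members lower in all 3 pairs numbered 2 with a common sum or quantile normalization (Psmd3 and Psmd11) and 2 with upper-quartile factors (Psmd3 and Psmd5). Of all tested genes, 12.3%, 16.4% and 13.1% were lower in all 3 pairs in these settings, in that order. Members that differed among replicate numbers numbered 1 without pair 2 (Psmd5), against 16.1% of tested genes. They numbered 2 with a common sum (Psmd7 and Psmd11), against 15.9%. The cause of these changes was not tested.

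Differences close to 0 changed sign. Pomp went below 0 with a common sum (-0.0081), upper-quartile factors (-0.0097), median-of-ratios factors (-0.0116) and quantile normalization (-0.0384). With quantile normalization the difference was also negative for Psma3 (-0.0236), Psmb2 (-0.0412), Psmd2 (-0.0395) and Psme1 (-0.0245). Psmc3 was at 0.0097 with all 8 libraries, with or without the block. Without 1 S100A8/A9 library the difference ran from -0.0394 to 0.0126 for Psmc3, from -0.23 to 0.0317 for Psmd5, from -0.0191 to 0.0414 for Pomp and from -0.12 to 0.05 for Psmd11. In the same settings it ran from -0.19 to 0.25 for Psma3, from -0.0215 to 0.09 for Psmd9, from -0.0172 to 0.09 for Psmd2 and from -0.0107 to 0.1 for Psme1. Psmd7 reached 0.2 without S100A8/A9 replicate 1. Without 1 vehicle library it ran from -0.09 to 0.18 for Psma3, from -0.0332 to 0.0116 for Psmc3, from -0.0083 to 0.06 for Psmd2, from -0.0142 to 0.05 for Psmd9, from -0.0079 to 0.17 for Nfe2l1 and from -0.0343 to 0.11 for Psme1. Likewise it ran from -0.0062 to 0.16 for Psmb8, from -0.0036 to 0.16 for Psmd7, from -0.13 to 0.0334 for Psmd11, from -0.0096 to 0.09 for Psmb2 and from -0.0065 to 0.18 for Psmb6. In the blocked fit without pair 1 the sign turned for Psma3 (-0.08), Psmc3 (0.0313), Pomp (-0.0132) and Psme1 (-0.0298). Without pair 2 it turned for Psma3 (-0.22), Psmd2 (-0.0023), Psmd5 (0.0044) and Psmd11 (0.0066). Ifit2 was called with the block (adjusted p 0.0289), also without pair 1 (0.0181) and pair 2 (0.0117), but not without pair 3 (0.0628) or with all 8 libraries (0.259). Of the 32 named genes, 24 had a difference that moved past 1.5 times in either direction when 1 library was left out. Rps27a had -0.78 in the blocked fit without pair 2, where it was called (adjusted p 0.0181). The 1 pair of replicate 4, the unknown depth of replicates 1 to 3 and 3 libraries a group limit what could be detected, and intervals of the members reach about 0.5 on the log2 scale.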

Other observations

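Of the 31 proteasome genes, 7 have at least 1 annotated near-identical copy (at least 95% identity over at least 300 bases), and the 15 copies together leave the division of reads between gene and copy uncertain for Psma3, Psma4, Psma5, Psmb3, Psmc1, Psmd11 and Psmd2. In vehicle replicates 1 to 3, 6 of these copies averaged 1 FPKM or more. Gm13835, the copy of Psma3, was the highest at 11.1 FPKM, followed by A730017L22Rik, a copy of Psmd11, at 3.03 FPKM and Gm4950, a copy of Psmb3, at 2.41 FPKM.

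Another annotated gene overlaps 14 of the 31 members, on the opposite strand for 12 and on the same strand for 6. For 4 members the overlapping gene averaged 1 FPKM or more with vehicle. These were Psma2 with AW209491 (1.54 FPKM), Psma3 with 3110056K07Rik (1.3 FPKM), Psmc3 with Slc39a13 (12.8 FPKM) and Psmd13 with Sirt3 (3.47 FPKM).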
